A study of Danio rerio with 5 samples.

Results

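Cells sorted for the nppa:mCitrine reporter of injured zebrafish hearts included, at both early time points, wells with few cardiomyocyte transcripts. These low wells are described here. A well was kept when it held 500 or more unique molecular identifiers (UMIs, the tags that mark single captured mRNA molecules) outside the ERCC spike-in RNAs. A kept well was called low when the transcripts of 6 cardiomyocyte genes (myl7, cmlc1, actc1a, tnnt2a, vmhc and tnni1b) together made up less than 4% of its UMIs. The rule found 82 of 319 kept wells at 1 day post cryo-injury (dpci) and 57 of 300 at 3 dpci, 139 of 619 in all, out of 1302 kept wells in the whole series. All other kept wells of the same plate served for comparison.

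The plates held single ventricular cells of fish of the TL background that carried TgBAC(nppa:mCitrine), a reporter of the natriuretic peptide gene nppa. The ventricle tip was frozen with a chilled copper probe, and the cells were sorted on reporter level into plates of 384 wells at 1, 3 or 7 dpci. There was 1 plate each for 1 and 3 dpci and 3 plates for 7 dpci, with no uninjured plate among them. The labels call the cells of every plate border zone cardiomyocytes, and the cells came from several hearts per time point, with no label that ties a well to a heart. Wells of a plate share fish, sort and library and are not replicates. Since the rule itself used these counts, and each early time point had 1 plate, every difference below is a description of these plates, without a p-value. Ranges in square brackets are exact 95% intervals that cover counting error only.

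The cardiomyocytes beside a wound of the zebrafish heart, the border zone, switch on nppa and nppb and re-enter the cell cycle. In the first days after injury macrophages and neutrophils enter the wound and clear debris, while endocardial, endothelial and epicardial cells become active and lay down matrix. Dying or broken cells in dissociated tissue lose cytoplasmic mRNA sooner than mitochondrial transcripts, so the share of mitochondrial UMIs is a common measure of cell quality.

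The low wells made up 25.7% [21.0, 30.9] of kept wells at 1 dpci and 19% [14.7, 23.9] at 3 dpci. On the 3 plates of 7 dpci the same rule found 6.84%, 4.86% and 6.50%. The 3 wells just inside the threshold held 3.88%, 3.90% and 3.93% of UMIs in the 6 genes at 1 dpci, and the 3 just outside held 4.01%, 4.24% and 4.26%. At 3 dpci the corresponding values were 3.24%, 3.77% and 3.79% inside, and 4.04%, 4.08% and 5.04% outside. The 1 dpci wells thus ran through the threshold with no gap. Low wells had a median of 3406 UMIs against 2633 in other wells at 1 dpci and 2467 against 2072 at 3 dpci. Without mitochondrial transcripts the order turned, with medians of 1334 against 2396 and 609 against 1948. They held 41.3% and 28.3% of the UMIs of their plates.

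Mitochondrial transcripts differed between low and other wells on both plates. In low wells of 1 dpci they took from 3.80% to 94.3% of UMIs, with a median of 40.2%, against a median of 5.77% in other wells. At 3 dpci the median was 58.7% in low wells and 2.39% in other wells. Wells with 50% or more mitochondrial UMIs numbered 39 of 82 low wells against 5 of 237 others at 1 dpci, and 31 of 57 against 5 of 243 at 3 dpci. A well filled by mitochondrial transcripts has a lower share of any other gene, the 6 cardiomyocyte genes included. The low wells were therefore divided further, a choice made after these values were seen.

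**Figure D1:**
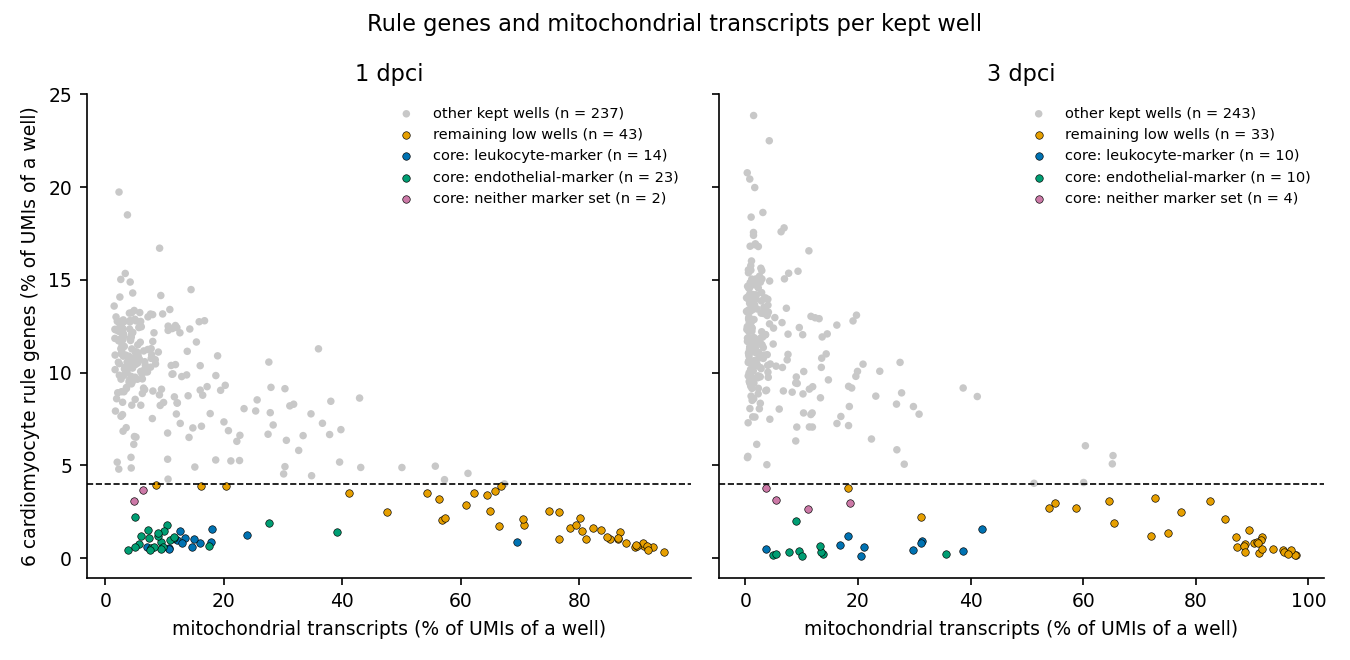
Share of each kept well's UMIs in the 6 cardiomyocyte genes (vertical axis) against its share of mitochondrial transcripts (horizontal axis), 1 point per well, for the 1 and 3 dpci plates. The dashed line marks 4%; coloured points below it are low wells, and most of the 43 and 33 orange ones lie far to the right, with medians of 78.4% and 88.7% mitochondrial UMIs.

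Core low wells were those in which the 6 genes stayed under 4% once mitochondrial transcripts were left out, with at least 500 UMIs remaining. There were 39 at 1 dpci and 24 at 3 dpci, which is 12.2% [8.84, 16.3] and 8% [5.19, 11.7] of kept wells. The 43 and 33 remaining low wells were those that failed either condition. By that definition each either reached 4% in the 6 genes without mitochondrial transcripts or held under 500 UMIs without them. Leaving out mitochondrial transcripts returned 43 of 43 of them at 1 dpci, and 30 of 33 at 3 dpci, to 4% or more in the 6 genes. On each plate 27 of them held fewer than 500 non-mitochondrial UMIs. Summed over wells, the 6 genes took 1.01% and 1.19% of non-mitochondrial UMIs in core low wells. They took 6.20% and 6.46% in remaining low wells, and 11.0% and 12% in other wells. In wells under 500 UMIs, whose content was not tested, the summed values were 8.68% and 12.4%. Sums over remaining low wells leaned on 1 deep well per plate, with 18305 of 48966 and 8741 of 16222 non-mitochondrial UMIs. Per well the medians were 7.40% and 7.50% in remaining low wells, and 11.3% and 12.4% in other wells. The low value of the core wells follows from how they were chosen.

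Core low wells were deep. Their UMIs ran from 611 to 39099 with a median of 9713 at 1 dpci, and from 2467 to 23555 with a median of 7067 at 3 dpci. Every low well still held myl7, a cardiac myosin light chain and 1 of the rule genes, with 2 to 387 UMIs and a median of 22.1 at 1 dpci. At 3 dpci the low wells held 2 to 201 myl7 UMIs with a median of 9. At 1 and 3 dpci the medians were 45.24 and 20.05 in core low wells and 121 and 108 in other wells. In wells under 500 UMIs the median was 4 on each plate. The part of free RNA and of a second cell in these counts was not tested. No doublet caller was run, and the study's sort gates were set to remove doublets.

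Core wells were described by marker lists. A well was called a leukocyte-marker well when it held UMIs of 3 or more pan-leukocyte genes, and an endothelial-marker well when it held 3 or more endothelial or endocardial genes but not 3 pan-leukocyte genes. At 1 dpci 14 core wells were leukocyte-marker wells, 23 were endothelial-marker wells and 2 held neither set. At 3 dpci the numbers were 10, 10 and 4. Of the leukocyte-marker wells, 9 at 1 dpci and 2 at 3 dpci also held 3 or more endothelial markers. Among other wells, 5 of 237 and 0 of 243 held 3 endothelial markers, and 2 and 0 held 3 pan-leukocyte markers. Deep wells hold more markers by depth alone, with median UMIs of 20989 and 7779 in leukocyte-marker wells and 6046 and 6825 in endothelial-marker wells. At this depth a low share in the 6 genes can still be many UMIs. Leukocyte-marker wells held a median of 114 myl7 UMIs at 1 dpci and 21.1 at 3 dpci, and endothelial-marker wells 28.1 and 14. After thinning each well to 500 UMIs, at least 1 pan-leukocyte marker remained in 11 of 14 and 9 of 10 leukocyte-marker wells, in 1 of 23 and 0 of 10 endothelial-marker wells, and in 12 of 228 and 1 of 238 other wells. At least 1 endothelial marker remained in 22 of 23 and 9 of 10 endothelial-marker wells, against 26 of 228 and 15 of 238 other wells. Among leukocyte-marker wells 4 of 14 and 1 of 10 still held an endothelial marker, 3 and 0 of them beside a pan-leukocyte marker. These lists defined the wells, so the shares only describe them. At the defining number of 3 markers, 13 of 23 and 6 of 10 endothelial-marker wells remained, but 0 of 14 and 2 of 10 leukocyte-marker wells. Mitochondrial UMIs were removed before thinning, which left out 27 remaining low wells on each plate and 9 and 5 other wells as too shallow.

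**Figure D2:**
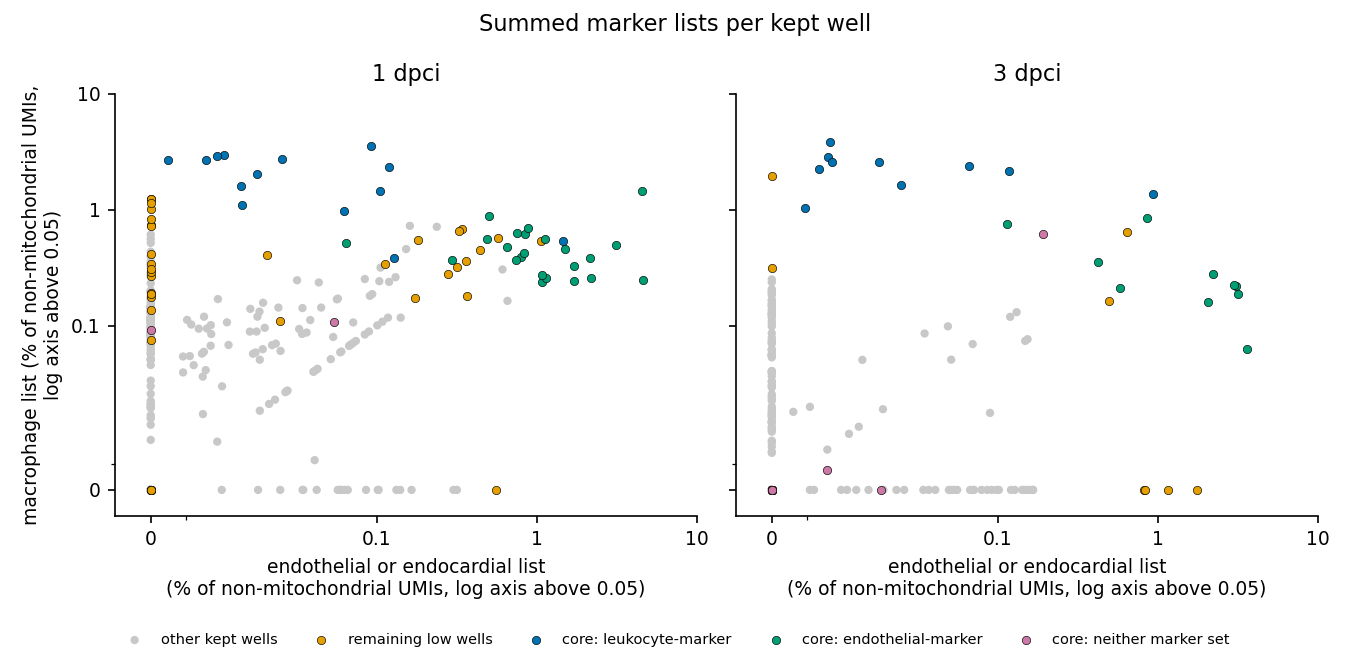
Summed macrophage list against summed endothelial or endocardial list, each as a percentage of a well's non-mitochondrial UMIs, 1 point per kept well; both axes are linear near 0 and logarithmic above 0.05. Most leukocyte-marker wells (blue) sit high, with medians of 2.18% and 2.30% in the macrophage list, and most endothelial-marker wells (green) lie to the right, with medians of 1.07% and 2.13% in the endothelial list.

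The leukocyte-marker wells were high in macrophage genes. The macrophage list took 2.00% of their non-mitochondrial UMIs at 1 dpci and 2.19% at 3 dpci, against 0.0805% and 0.0240% in other wells. The neutrophil list took 0.190% and 0.227%, most of it from NCF1, a gene of the phagocyte oxidase. In other wells the list took 0.0198% and 0.00195%. At full depth 12 of 14 and 4 of 10 leukocyte-marker wells held 3 or more of its genes, against 2 of 237 and 0 of 243 other wells. These counts were not matched for depth. Once thinned, mitochondrial UMIs included, 0 of 14 and 0 of 10 leukocyte-marker wells did, and 0 of 237 and 0 of 243 other wells. The macrophage list then kept 3 or more genes in 12 of 14 and 9 of 10 leukocyte-marker wells, and in 2 of 237 and 0 of 243 other wells. Per well the macrophage share ran from 0.384% to 3.55% with a median of 2.18% at 1 dpci. At 3 dpci it ran from 1.03% to 3.83%, above the highest other well, 0.251%. At 1 dpci the highest other well held 0.726%, so the groups overlapped there.

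marco, a scavenger receptor of macrophages, held 0 to 78.7 UMIs per leukocyte-marker well at 1 dpci with a median of 8.51. At 3 dpci it held 1 to 19 with a median of 4.50. It was found in 13 of 14 and 10 of 10 of these wells, but in 15 of 237 and 2 of 243 other wells, and in 3 of 65 and 1 of 84 wells under 500 UMIs. The part of free RNA in these other wells was not tested, and depth differed, with median UMIs of 2633 and 2072 in other wells and 158 and 112 in wells under 500 UMIs. cd74a, the invariant chain that guides MHC class II molecules, held 0 to 48.3 UMIs with a median of 5.50 at 1 dpci, in 8 of 14 wells. At 3 dpci it held 0 to 61.5 with a median of 20.6, in 9 of 10 wells. It was found in 11 of 237 and 12 of 243 other wells and in 1 and 2 wells under 500 UMIs. Both genes were present together in 8 of 14 and 9 of 10 leukocyte-marker wells. In 1 endothelial-marker well of 3 dpci cd74a also reached 36.1 UMIs.

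Over all low wells, cd74a had 155 UMIs against 12 in the other wells at 1 dpci, a log2 ratio of 4.2 [3.35, 5.18] after scaling to total UMIs. At 3 dpci it had 370 against 14, a log2 ratio of 6.06 [5.30, 6.95]. marco had 250 against 15, log2 4.57 [3.82, 5.43], and then 65.1 against 2, log2 6.36 [4.45, 9.44]. The marco interval was wide at 3 dpci, where other wells held 2 UMIs.

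Several further macrophage genes lay mostly in the same wells, though not all of the list did. CD63, a tetraspanin gene of lysosomes and the most abundant of the list at 1 dpci, had 1167 UMIs in leukocyte-marker and 581 in endothelial-marker wells at 1 dpci, and 106 and 156 at 3 dpci. HMOX1, haem oxygenase, which breaks down haem, held 680 of the 744 low-well UMIs in leukocyte-marker wells at 1 dpci and 162 of 171 at 3 dpci. The chemokine gene ccl35.2 held 682 of 694 and 242 of 285. ctss2.1, a cathepsin S gene, held 489 of 507 and 115 of 125. The complement genes c1qa and c1qb, whose products tag debris, held 77 of 78 and 77 of 79 UMIs there at 1 dpci. MHC class II and antigen presentation genes took 0.824% and 1.37% of non-mitochondrial UMIs in leukocyte-marker wells, against 0.0660% and 0.0420% in other wells. Lysosomal genes took 2.21% and 1.40% against 0.106% and 0.0331%. Endothelial-marker wells stood between, with lysosomal genes at 0.685% and 0.547% and MHC class II and antigen presentation genes at 0.178% and 0.251%. The macrophage list took 0.466% and 0.337% there. At full depth 16 of 23 and 7 of 10 endothelial-marker wells held 3 or more macrophage genes, and 0 of 23 and 0 of 10 once thinned.

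The endothelial-marker wells carried endothelial and matrix genes together. cdh5, the adhesion molecule of endothelial junctions, held 0 to 44.2 UMIs per well with a median of 3 at 1 dpci, and 1 to 16 with a median of 4.50 at 3 dpci. It was found in 18 of 23 and 10 of 10 of these wells, in 11 of 237 and 5 of 243 other wells, and in 0 of 65 and 0 of 84 wells under 500 UMIs. col1a1a, a chain of fibrillar type I collagen, held 0 to 115 UMIs with a median of 3 at 1 dpci and 0 to 19 with a median of 5.50 at 3 dpci. It was found in 20 of 23 and 9 of 10 of these wells, in 53 of 237 and 14 of 243 other wells, and in 5 and 2 wells under 500 UMIs. Both genes occurred together in 17 of 23 and 9 of 10 endothelial-marker wells. Whether such a well held 1 cell or several was not tested.

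Over all low wells cdh5 had 155 UMIs against 15 in other wells at 1 dpci, log2 3.88 [3.11, 4.75], and 55 against 5 at 3 dpci, log2 4.80 [3.49, 6.48]. col1a1a had 406 against 64, log2 3.17 [2.79, 3.58], and 72.1 against 24, log2 2.92 [2.24, 3.66]. Of these UMIs 369 and 70.1 lay in the endothelial-marker wells.

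AQP8, a water channel gene, was the most abundant gene of the endothelial list. It held 0 to 176 UMIs per endothelial-marker well with a median of 9.01 at 1 dpci, and 0 to 216 with a median of 57.4 at 3 dpci. Other wells held at most 4 and 2. The ranges overlapped, since 2 endothelial-marker wells on each plate held none. The list further included NOTCH1, the receptor of Notch signalling in endocardium, with 116 and 61 UMIs in these wells, and klf2b, a flow-responsive transcription factor, with 86.1 and 101. vwf, the von Willebrand factor of vessel walls, had 47 UMIs at each time point. NFATC1, a transcription factor of endocardium and valves, had 9 and 1.

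The list of epicardial or fibroblast genes was also high in these wells, at 2.25% and 2.27% of non-mitochondrial UMIs, against 0.0902% and 0.0674% in other wells. At full depth all 23 and all 10 endothelial-marker wells held 3 or more of its genes. So did 13 of 14 and 9 of 10 leukocyte-marker wells, and 69 of 237 and 9 of 243 other wells. These counts were not matched for depth. After thinning each well to 500 UMIs, mitochondrial ones included, 22 of 23 and 9 of 10 endothelial-marker wells still held 3 or more. Then 1 of 14 and 1 of 10 leukocyte-marker wells did, and 2 of 237 and 1 of 243 other wells. The endothelial list kept 3 or more genes in 12 of 23 and 7 of 10 endothelial-marker wells. In leukocyte-marker wells the epicardial or fibroblast list took 0.651% and 0.405%. Its UMIs came mostly from the keratins krt8 (904 and 587 UMIs) and krt18a.1 (600 and 251), from s100a10b (413 and 319), from ALDH1A2, which makes retinoic acid (150 and 84.2), and from collagens. Its defining transcription factors were scarce: TCF21 had 4 and 0 UMIs in these wells, TBX18 5 at 1 dpci, and wt1b 2 at 1 dpci. TBX18 and wt1b had no row in the 3 dpci table. Leukocyte-marker wells held a further 12 UMIs of TCF21 and 6 of wt1b at 1 dpci. cd34, a surface sialomucin outside both lists, had 224 and 207 UMIs in endothelial-marker wells, 20 and 8.01 in leukocyte-marker wells, and 18 and 12 in all other wells.

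**Figure D3:**
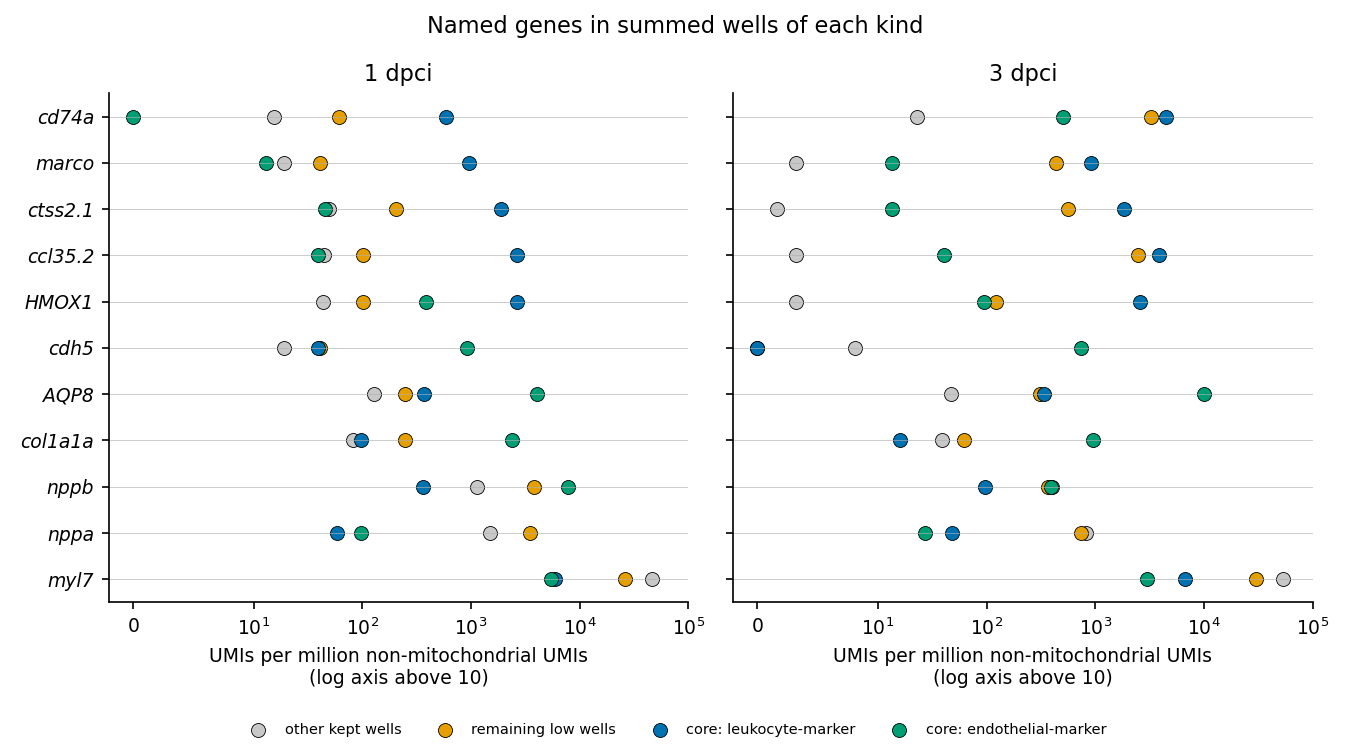
Level of 11 genes in the summed wells of each kind, in UMIs per 1000000 non-mitochondrial UMIs (linear near 0, logarithmic above 10), for other wells, remaining low wells, leukocyte-marker wells and endothelial-marker wells. cd74a and marco are highest in leukocyte-marker wells on both plates, cdh5, AQP8 and col1a1a in endothelial-marker wells, and myl7 in other wells.

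A rule added after the data were seen picked out genes that parted the 2 kinds of core wells. Of 419 genes compared, 63 were 4-fold or more higher in leukocyte-marker than in endothelial-marker wells on both plates, and 35 were 4-fold or more lower on both. Besides marco, the leukocyte side included NCF1, a subunit of the phagocyte oxidase (314 against 5.01 UMIs at 1 dpci, 99.2 against 3 at 3 dpci), and the transporter gene SLC43A3 (232 against 1, 73.1 against 2). The endothelial side included both type I collagen alpha 1 genes, krt18a.1, tuba8l3, eppk1, GRB10 and cd34, and podxl, which codes for podocalyxin of cell surfaces (160 against 19, 107 against 3).

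A few low wells stood apart from both kinds. At 1 dpci 1 remaining low well had 22988 UMIs, 3.88% of them in the 6 genes and 4.87% once mitochondrial transcripts were left out. It held 733 UMIs of mmp13a, a collagenase gene, 79.8 each of MMP9, a gelatinase, and NCF1, and 52.3 of LECT2, a neutrophil chemoattractant, with 6 neutrophil markers in all. At 3 dpci 1 remaining low well of 10690 UMIs held 15 macrophage markers and 52.3 UMIs of cd74a. mmp13a shows how far 1 well can set a ratio. Its log2 ratio of low to other wells was 3.41 [3.12, 3.70] at 1 dpci, but −2.15 when mitochondrial transcripts were left out of the rule. That well, with its 733 UMIs, then counted among the other wells, which turned the sign. The core low wells of 1 dpci held 97.1 UMIs of mmp13a, in 29 of 39 wells. The 237 other wells held 113, in 84 of them.

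Across genes, those with 20 or more UMIs on a plate were compared, and 4-fold or more was called a difference. At 1 dpci 1379 of 5525 genes were higher in low wells (25.0%) and 698 lower (12.6%), with a median log2 ratio of 0.30 over all genes. At 3 dpci 718 of 3657 genes were higher (19.6%) and 700 lower (19.1%), with a median of −0.25. Of 3505 genes measured on both plates, 623 were higher at 1 dpci and 690 at 3 dpci. Higher on both were 541 (15.4% of the 3505), which is 86.8% of the 623 and 78.4% of the 690. Lower were 593 at 1 dpci and 669 at 3 dpci. A further 383 were lower on both (10.9%), or 64.6% of the 593 and 57.2% of the 669, and 2 went opposite ways. The rule chose these wells by cardiomyocyte genes, so lower cardiomyocyte genes were built in. A gene could also reach the minimum of 20 UMIs through deep low wells alone, which favours a higher call. Such genes may be among the 541, so part of the overlap of higher genes may be built in as well. With the highest minimum tried, given below, 339 genes were higher and 308 lower at 1 dpci. At 3 dpci 124 were then higher and 328 lower. The balance between higher and lower calls thus depended on this minimum, and also on scaling. TMM factors (edgeR's scaling to the bulk of genes) shifted every ratio by −0.45 and −0.47 and gave 1153 higher and 1016 lower genes at 1 dpci, and 627 and 963 at 3 dpci. Without the wells deeper than 3 times their plate's median, 225 of 3001 and 161 of 2286 genes were higher in low wells.

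**Figure D4:**
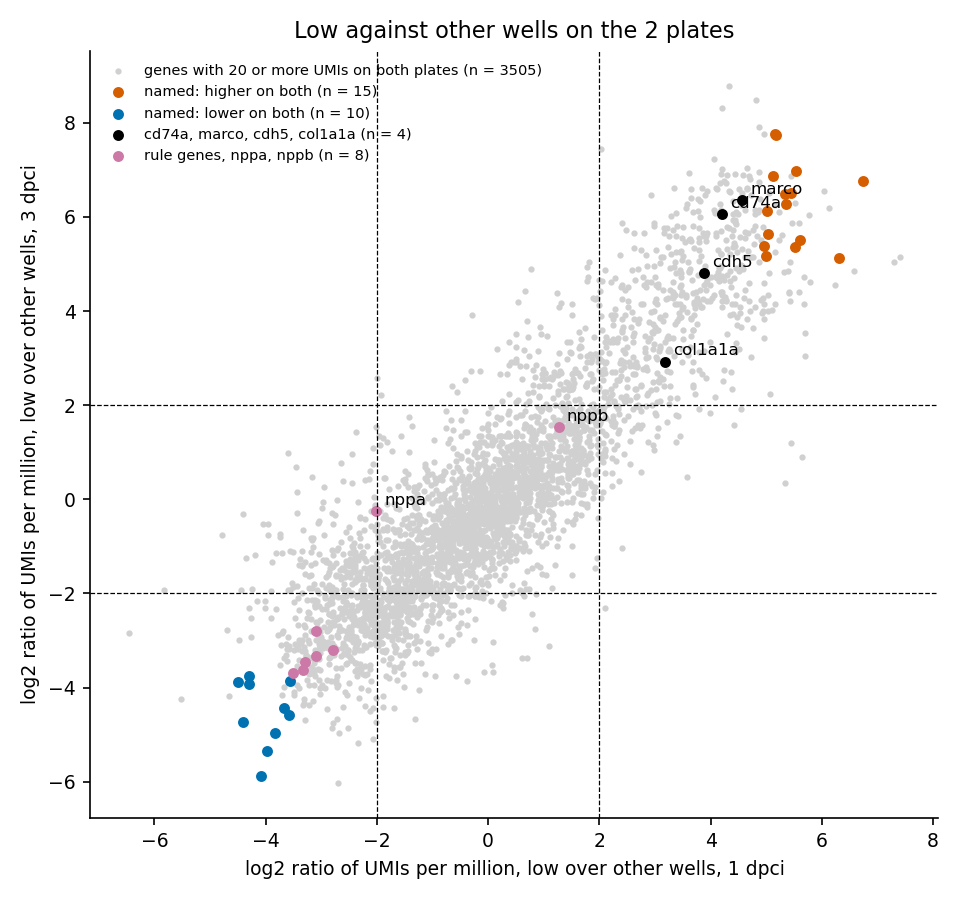
Log2 ratio of low over other wells, scaled to total UMIs, at 3 dpci (vertical axis) against 1 dpci (horizontal axis) for the 3505 genes with 20 or more UMIs on both plates; dashed lines mark 4-fold. The named markers cd74a, marco, cdh5 and col1a1a lie beyond 4-fold on both plates, while nppa and nppb lie apart from them.

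The same counts were made for core and for remaining low wells, but over genes filtered in different ways. For core wells the minimum UMIs per gene could be reached through the deep core wells alone. The shares of core and remaining low wells therefore cannot be set against each other. Core wells had 1506 genes higher (28.1%) and 686 lower (12.8%) of 5357 at 1 dpci, and 822 higher (23.0%) and 502 lower (14.0%) of 3577 at 3 dpci. Remaining low wells, compared over genes for which at least 5 UMIs were due at an equal share, had 23 higher (2.13%) and 46 lower (4.26%) of 1080 at 1 dpci. At 3 dpci they had 4 higher (0.920%) and 24 lower (5.52%) of 435. Without the wells of 3 or more pan-leukocyte markers the remaining wells had 9 higher and 22 lower of 723, and 4 higher and 9 lower of 251. Few genes thus differed 4-fold between remaining low wells and other wells, at a depth that let few genes be compared.

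For the lists of other cell types, counts of called genes say little, since many members passed the minimum of 20 UMIs only with the low wells. Of 18 endothelial genes that passed at 1 dpci and 9 at 3 dpci, 1 on each plate (AQP8) held 20 UMIs in other wells alone. For the macrophage list it was 6 of 19 and 3 of 17, and for the pan-leukocyte list 1 of 6 and 0 of 5. The lists are therefore given by their summed UMIs over all members, filter or not. The endothelial list had 1905 UMIs in low wells against 176 in other wells at 1 dpci, and 1306 against 58 at 3 dpci. The macrophage list had 6037 against 631 and 1797 against 148, and the pan-leukocyte list 1030 against 60 and 247 against 10. Collagens had 1470 against 156 and 328 against 188. COL1A2, the alpha 2 chain of type I collagen, had 154 UMIs against 5 in other wells at 1 dpci, but 27 against 30.1 at 3 dpci, log2 5.45 [4.2, 7.10] and 1.19 [0.38, 1.99]. The neutrophil list had 1494 UMIs against 155 at 1 dpci, but 733 of the former were mmp13a in the single well described above. The same well added 79.8 each of MMP9 and NCF1 and 52.3 of LECT2, also of this list. Thrombocyte genes had 140 UMIs against 12 and 63 against 7. They took 0.0508% and 0.0854% of non-mitochondrial UMIs in leukocyte-marker wells, and 0.00259% and 0% in endothelial-marker wells. T or NK cell, B cell and erythrocyte genes were too scarce to compare. Of these RUNX3 alone passed the minimum (20.1 UMIs in 1 low well at 1 dpci).

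The 15 genes with the largest smaller ratio among those higher on both plates were picked by rule. CYP1B1, a cytochrome P450 gene, was first, with 75.1 UMIs against 1 at 1 dpci, log2 6.74 [4.22, 12.06], and 86.1 against 2 at 3 dpci, log2 6.77 [4.87, 9.83]. Of its low-well UMIs 59 and 85.1 lay in endothelial-marker wells. Leukocyte-marker wells held most UMIs of grna.2, a granulin growth factor gene (316 of 321 and 80.4 of 81.4), of MFAP4, a macrophage marker in zebrafish (321 of 326 and 75.2 of 86.2), and of LACC1, an enzyme gene of macrophages in mammals (141 of 148 and 79.1 of 93.2). ARPC1B, a subunit of the actin-nucleating Arp2/3 complex, lay mostly there as well, with 345 of 377 and 63 of 90.1. srgn, the proteoglycan of secretory granules, and icn, an S100 family calcium-binding protein gene, lay in both kinds of core wells.

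Cardiomyocyte genes outside the rule were low in the same wells. Of 18 measured at 1 dpci 17 were 4-fold or more lower and 1 was 4-fold or more higher. Of 17 at 3 dpci 12 were lower and 0 higher. Over all genes 12.6% and 19.1% were as much lower. The list medians were −2.76 and −2.52, and 1 and 3 of its genes held under 20 UMIs in low wells. mb, the myoglobin gene, had 2386 UMIs in low wells against 22062 in other wells, log2 −2.70 [−2.76, −2.64], and 1664 against 24122 at 3 dpci, log2 −2.52 [−2.59, −2.45]. Summed over wells, the list took 0.796% and 0.855% of non-mitochondrial UMIs in leukocyte-marker wells, and 1.25% and 1.69% in endothelial-marker wells. It took 5.47% and 5.40% in remaining low wells, and 8.51% and 9.97% in other wells. Per well its medians were 6.06% and 6.72% in remaining low wells, and 8.12% and 9.59% in other wells. HMGB3, a chromatin protein gene, was at 0 in low wells of both plates against 84 and 103 UMIs in other wells. Against a floor of 3 counts over the low wells this is a log2 ratio of −4.30 or lower at 1 dpci and −3.76 or lower at 3 dpci. CKMT2, the mitochondrial creatine kinase of muscle, had 14 against 336 and 2 against 300 UMIs. LRRC10, a heart-specific leucine-rich repeat gene, had 2 against 64 and 2 against 75.

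Genes of energy metabolism coded in the nucleus were low with them. Of the oxidative phosphorylation genes, 32 of 85 were 4-fold or more lower at 1 dpci and 73 of 84 at 3 dpci, none higher, with list medians of −1.87 and −2.50. Of these genes 8 and 31 held under 20 UMIs in low wells. The genome-wide share of lower genes was 12.6% and 19.1%. The totals here held mitochondrial UMIs, and totals without them raised every log2 ratio of the same wells by 0.24 and 0.49. In core low wells, scaled to non-mitochondrial UMIs, 25 of 85 and 58 of 84 were lower and 1 was higher on each plate. Their list medians were −1.79 and −2.26, and 12.8% and 14.0% of all genes were lower. ATP5F1B, the catalytic subunit of ATP synthase, had log2 ratios of −1.98 [−2.10, −1.87] and −2.92 [−3.12, −2.73]. Fatty acid oxidation genes were lower in 12 of 19 and 14 of 17, of which lists 8 and 12 genes held under 20 UMIs in low wells. TCA cycle and malate-aspartate shuttle genes were lower in 9 of 20 and 14 of 20, with 1 and 8 under 20 UMIs there. Glycolysis genes were lower in 10 of 21 and 11 of 20, with 3 and 6 under 20. At 1 dpci 1 fatty acid oxidation gene and 1 glycolysis gene were 4-fold or more higher. In the glycolysis list the 2 genes for glyceraldehyde-3-phosphate dehydrogenase parted, though short tags may be split between such copies. GAPDH had log2 ratios of −3.18 [−3.26, −3.09] and −3.56 [−3.72, −3.41]. GAPDHS had 2.26 [2.09, 2.44] and 1.55 [1.30, 1.82]. The mitochondrial genome's own transcripts were high in remaining low wells, as given above. Nuclear oxidative phosphorylation genes took 4.53% and 5.24% of summed non-mitochondrial UMIs there, against 7.13% and 7.79% in other wells. In endothelial-marker wells they took 1.89% and 1.45%. Per well the medians were 5.87% and 5.45% in remaining low wells, and 7.12% and 7.59% in other wells.

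**Figure D5:**
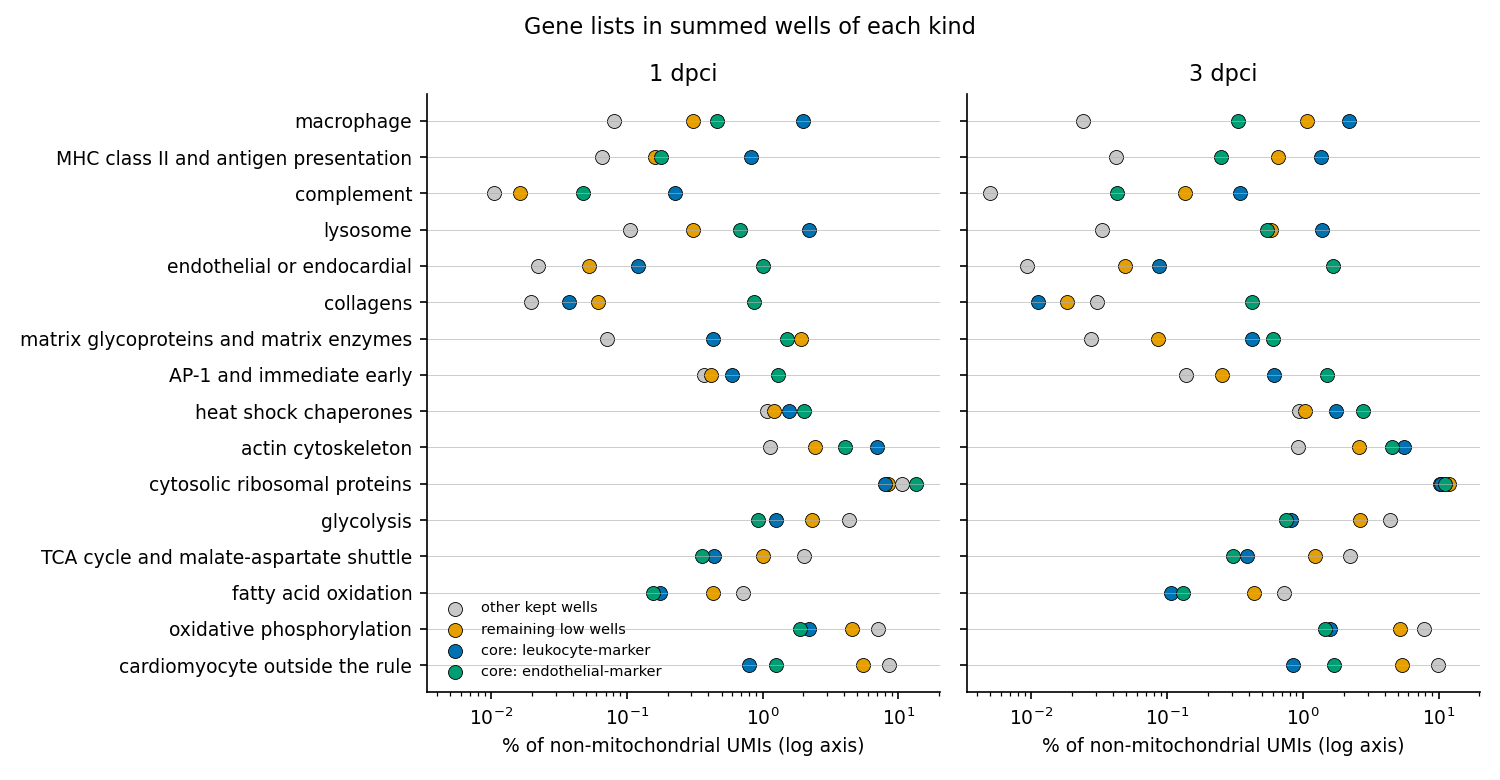
Share of non-mitochondrial UMIs taken by 16 gene lists in the summed wells of each kind, on a logarithmic axis, for 1 and 3 dpci. Macrophage, MHC class II, complement and lysosome lists are highest in leukocyte-marker wells, endothelial and collagen lists in endothelial-marker wells, and the metabolic and cardiomyocyte lists in other wells.

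Of the AP-1 and immediate early genes, rapid transcription factors of stress and dissociation, 4 of 19 were 4-fold or more higher at 1 dpci and 15 of 18 at 3 dpci, with list medians of 1.02 and 3.05. Over all genes 25.0% and 19.6% were as much higher, so at 1 dpci the list was near the background. At 3 dpci 7 of the 18 genes held under 20 UMIs in other wells. FOS had 730 UMIs against 696 in other wells at 1 dpci, log2 0.58 [0.43, 0.73], and 503 against 179 at 3 dpci, log2 2.83 [2.58, 3.08]. Endothelial-marker wells held this list at 1.29% and 1.52% of non-mitochondrial UMIs, and other wells at 0.370% and 0.138%, so that the level fell between the plates in the other wells. The heat shock chaperones had 4 of 17 and 7 of 17 higher, 2 and 0 lower, and list medians of 0.40 and 0.54. The inducible hsp70l had log2 ratios of 1.07 [0.92, 1.22] and 3.48 [3.26, 3.70]. Per endothelial-marker well it ran from 0 to 103 UMIs with a median of 9 at 1 dpci, and from 0 to 278 with a median of 33.6 at 3 dpci. A single other well held 308 of the 624 UMIs of other wells at 1 dpci, and at 3 dpci the highest other well held 15, so the ranges overlapped. Genes of the actin cytoskeleton were higher in 15 of 26 and 12 of 22, led by actb1 at 3.73 [3.57, 3.90] and 4.42 [4.09, 4.75]. On each plate 2 were 4-fold or more lower. Of the genes of this list 10 and 9 held under 20 UMIs in other wells. Reads of near-identical actins may have been split between actb1 and actb2. Ribosomal protein genes showed no such shift, with 0 higher and 1 lower of 74 and of 73, and list medians of −0.34 and −0.52.

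The 2 natriuretic peptide genes, markers of the border zone and, for nppa, of the sort, parted in the low wells. At 1 dpci nppa had 205 UMIs in low wells against 1176 in other wells, log2 −2.01 [−2.23, −1.80]. Of the former 172 lay in remaining low wells, whose highest wells held 64.5 and 61.45. nppb had 1499 against 886, log2 1.27 [1.15, 1.39]. The highest other well for each gene held 214 UMIs of nppa and 186 of nppb. Of the low-well UMIs of nppb, 1215 lay in endothelial-marker wells, where it ran from 0 to 393 per well with a median of 4, beside 15 UMIs of nppa in the same 23 wells. The 3 highest wells held 393, 227 and 190 UMIs. The median other well held 2 UMIs, at 2396 non-mitochondrial UMIs against 5342 in endothelial-marker wells, so the summed level rested on a few wells. Leukocyte-marker wells held 94.2 UMIs of nppb and 15 of nppa. Summed per 1000000 non-mitochondrial UMIs, nppb stood at 7874 in endothelial-marker wells, 1130 in other wells and 1050 in wells under 500 UMIs. nppa stood at 97.2, 1500 and 700.0. Without the low well richest in nppb, a choice added after its value was seen, the nppb ratio was 0.85 at 1 dpci.

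At 3 dpci 1 well decided these genes. nppb had 280 UMIs in low wells against 244 in others, log2 1.54 [1.29, 1.79], and nppa 168 against 507, log2 −0.25 [−0.51, 0.00]. A core well of 13385 UMIs that held neither marker set, with 3.79% of its UMIs in the 6 genes, contained 221 of the nppb and 99.2 of the nppa UMIs. It also contained 113 UMIs of xirp1, an actin-binding repeat gene of striated muscle, 52.3 of hspa1b and 193 of hsp70l. Without this well the ratios were −0.63 for nppb and −1.46 for nppa, and FOS stood at 2.58. In the 10 endothelial-marker wells of 3 dpci nppb had 29 UMIs.

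Between the 2 time points, 65 of 4244 genes were 4-fold or more higher in low wells of 3 dpci (1.53%) and 193 lower (4.55%). In other wells 53 and 141 of 4439 genes differed as much. Each time point is 1 plate, so time and plate cannot be told apart. Among the genes that were lower at 3 dpci were several of leukocyte-marker wells, which held 257822 non-mitochondrial UMIs at 1 dpci and 62097 at 3 dpci. lgals9l1, a galectin gene, went from 159 UMIs in 14 low wells to 2 in 2, log2 −5.06 [−8.12, −3.19]. tcnbb went from 86.4 in 7 low wells to 1, with 55.4 of the first in remaining wells. tnfa, the cytokine TNF, went from 139 UMIs in leukocyte-marker wells of 1 dpci, 110 of them in 1 well, to 3 at 3 dpci, a log2 ratio of −3.48 [−5.78, −1.90] after scaling to these totals. il11a, a cytokine of wound signalling, went from 113 to 3 in endothelial-marker wells, log2 −4.17 [−6.47, −2.59], over 154258 and 73949 non-mitochondrial UMIs. Over all low wells, scaled to total UMIs, cd74a went the other way, at a log2 ratio of 3 to 1 dpci of 2.50 [2.23, 2.78]. On the same scale marco changed by −0.69 [−1.11, −0.30]. In leukocyte-marker wells alone marco had 246 and 57.1 UMIs and cd74a 152 and 279, over 257822 and 62097 non-mitochondrial UMIs. The fall of marco over all low wells thus went with the smaller part of leukocyte-marker wells in the UMIs of 3 dpci.

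Of the 5 genes with the highest ratios of 3 to 1 dpci, 2 lay in endothelial-marker wells. igfbp6b, which codes for a binding protein of insulin-like growth factors, went from 73.1 UMIs to 346, log2 3.49 [3.13, 3.88]. In endothelial-marker wells it ran from 0 to 17 per well with a median of 0 at 1 dpci, and from 0 to 146 with a median of 5 at 3 dpci, found in 10 of 23 and 6 of 10 wells. IGFBP5, of the same family, went from 12 to 45.1 UMIs, in 3 wells each. The other 3, xirp1, kcnh6a and hspa1b, rested on wells with neither marker set, chiefly the nppb-rich well above. Without it the low-to-other ratios at 3 dpci went from 0.69 to −2.85 for xirp1, from 1.55 to 0.66 for kcnh6a, and from 2.59 to −0.85 for hspa1b.

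The 7 dpci plates, given as background, held 13, 12 and 16 low wells, of which 3, 1 and 3 were core wells. Of these 7 core wells 3 were leukocyte-marker wells, none was an endothelial-marker well and 4 held neither set. On plate 2 a remaining low well held 7 endothelial markers and a well outside the low set held 5 pan-leukocyte markers. Core wells thus made up 1.58% [0.33, 4.54], 0.40% [0.010, 2.23] and 1.22% [0.25, 3.52] of kept wells at 7 dpci, below the intervals of both early plates. Which fish, day or sort set this difference was not tested.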

How the data were processed

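The authors sorted single cells into 384-well plates and had SORT-seq (CEL-Seq2) libraries made. The deposited tables hold, per gene and well, estimated counts: numbers of unique molecular identifiers that the authors corrected for collisions among 4096 possible barcodes, so that they need not be whole. Per the study's methods, reads were mapped to the zebrafish genome Zv9. The submitters' processing notes name BWA 0.6.2. The 3' tags are short, so near-identical gene copies may share counts. The protocol text also names a sort on myl7:GFP. Well names 001 to 384 mark plate positions (384 of 384 shared by both early plates), not cells. Of 17997 gene IDs, 14285 matched a name, many of them human symbols; the other IDs were kept as given.

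ERCC spike-ins made up 30.1% and 34.6% of UMIs and were left out. The study also removed mitochondrial transcripts before its filter of 500; here they stayed in the totals, as the rule for low wells counts them. Without them 36 of 319 and 32 of 300 kept wells fell under 500. Mitochondrial transcripts were the sum of 15 IDs, 13 of them named. The 2 unnamed IDs were counted with them and followed the named ones across kept wells (Pearson's r of 0.844 and 0.521 at 1 dpci, 0.885 and 0.752 at 3 dpci), and 1 of them held 40.0% or more of the sum. UMIs were summed over wells, and ratios of UMIs scaled to total UMIs were given with exact conditional binomial 95% intervals and shares with Clopper-Pearson intervals. Summed UMIs were 610579 in low and 869195 in other wells at 1 dpci, and 256844 and 650082 at 3 dpci. Thinning drew 500 UMIs from rounded counts. Calculations used Python 3.11.15, NumPy 2.4.6, pandas 2.3.3 and SciPy 1.17.1, figures matplotlib 3.10.9, and TMM factors edgeR 4.0.16 in R 4.3.3. No doublet caller was run. The ratio script was tested on simulated data.

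Members and gene lists were chosen with earlier results of these data known. Genes were named by rule: 4 given markers, the 6 rule genes with nppa and nppb, the 15 highest and 10 lowest on both plates with 50 or more UMIs, up to 4 per list with most UMIs in low wells, and the 5 highest and 5 lowest of 3 against 1 dpci. A rule for genes parting the kinds of core wells was added after the data were seen. Other list members were named after their values were seen. No sequences were printed, and 1 gene that the rule names is not reported here.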

Additional observations from a re-analysis of the deposited data

How the results depend on the processing

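The share of low wells moved with its own threshold. It was 18.8% at a threshold of 2% and 32.3% at 6% at 1 dpci, and 14.3% at 2% at 3 dpci. With mitochondrial transcripts left out of the totals it was 13.8% and 8.96%. Much of the description rested on the deepest wells, those with over 3 times the plate's median depth. Without them 16 low wells of 1 dpci and 5 of 3 dpci held 3 endothelial markers (33 and 12 with them), and 2 and 3 held 3 pan-leukocyte markers (15 and 11). Genes 4-fold or more higher were then 225 of 3001 and 161 of 2286 (1379 of 5525 and 718 of 3657 with them), and genes of 3 against 1 dpci 26 higher and 55 lower. After thinning to 500 UMIs with mitochondrial ones counted, 13 wells of 1 dpci held 3 endothelial markers, and 2 wells on each plate held 3 pan-leukocyte markers. Counts of genes also moved with the call. At 1 dpci 2626 were higher with a minimum of 5 UMIs per gene and 339 with 100, when 308 were lower. At 2-fold 2075 were higher and 1400 lower, and with the counting interval beyond 4-fold 810 and 215. At 3 dpci 2178 were higher at 5 UMIs and 124 at 100, when 328 were lower. At 2-fold 1277 were lower, and 204 with the interval beyond 4-fold. By the mean of per-well shares 316 genes were lower at 3 than at 1 dpci, and 989 and 732 were higher and lower in low wells at 1 dpci, 592 and 957 at 3 dpci. Without mitochondrial transcripts 827 and 502 genes were higher and lower at 3 dpci.

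Of 2723 alternative values of named genes, 1938 stayed within the counting interval of the value reported and 773 moved. A further 12 changed sign from a reported ratio of 4-fold or more. Sign changes of smaller ratios, such as those of nppb and xirp1 at 3 dpci given above, were not counted among the 12. Without the deep wells LCP1 was −0.27, tnfb −0.83 and tcnbb −0.94 at 1 dpci, and hspa1b −0.50 at 3 dpci. At a threshold of 2%, mmp13a was −2.24, MMP9 −1.32 and tcnbb −0.17 at 1 dpci, and hspa1b −2.52 at 3 dpci. With mitochondrial transcripts left out, mmp13a was −2.15, MMP9 −1.18 and tcnbb −0.045. In this setting and at 2%, the 1 dpci well rich in mmp13a and MMP9 counted among the other wells. At 2% the nppb-rich well of 3 dpci did too. Without the low well richest in nppb, hspa1b was −0.85. The core wells and the wells left out singly were chosen after seeing the data. No paired analysis was possible because the 1 and 3 dpci plates are single and no test was run. A gene with 0 UMIs in 82 or 57 wells may still be expressed under the limit of 3 counts.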
